A study of Mus musculus with 14 samples.

Results

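In this study 3 FoxO transcription factor genes were deleted in mice. A set of 10 genes grouped as brakes of the cell cycle was followed on every array. They were the 3 members of the Gadd45 family (Gadd45a, Gadd45b and Gadd45g), the 3 inhibitors of the CIP/KIP family (Cdkn1a, Cdkn1b and Cdkn1c, whose proteins are p21, p27 and p57), the G-type cyclins Ccng1 and Ccng2, the pocket protein gene Rbl2 (p130) and the antiproliferative gene Btg1. Every probe set whose annotation gave only 1 of these symbols was taken. This gave 20 of the 45101 probe sets on the array and 10 of the 18193 genes with a named probe set.

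FoxO proteins sit in the nucleus when growth factor signalling through PI3K and AKT is low, and there they switch on genes that hold a cell in G1 or G2. AKT phosphorylates them and sends them to the cytoplasm, which lowers these targets and lets cyclin-dependent kinases act. p27, p130, cyclin G2 and Gadd45a are among the known FoxO targets of cell cycle arrest, and in quiescent endothelium and resting lymphocytes FoxO factors are known as keepers of homeostasis.

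The 14 RNA samples fell into 6 groups, a control and a Cre-carrying group for each of 3 sources. Liver sinusoidal endothelial cells (LSEC, the fenestrated lining of the liver's capillaries) gave 3 control and 3 Cre+ arrays, lung endothelial cells gave 2 and 2, and whole thymus gave 2 and 2. Controls were MxCre-, and the Cre+ samples were MxCre+. Both genotypes carried the floxed alleles Fk1 L/L, Fk2 L/L and also Afx L/L on an FVBn background, so controls held the same unrecombined alleles. The present gene symbols for Fk1, Fk2 and Afx are Foxo1, Foxo3 and Foxo4. MxCre places Cre recombinase under the interferon-inducible Mx promoter, which is active in liver, lymphoid tissue and other organs and is not restricted to endothelium. The labels do not give the animals' ages, how Cre was induced, or which animal each replicate came from, so p-values measure the spread between these samples, which may be technical. Each sample was hybridised to 1 Affymetrix whole-genome mouse array. Levels are log2 values after normalization between arrays, a difference of 1 on this scale is a doubling, and levels of different probe sets are not comparable with each other.

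Over the genes tested, correlations between arrays were 0.970 to 0.987 within a group and 0.584 to 0.838 from one tissue to another. The deletion was seen in the RNA of Foxo1 and Foxo4. Foxo1 fell on its 3 tested probe sets in LSEC and thymus, from 8.35 to 4.80 and from 8.23 to 6.43 on probe set 1416983_s_at. A further Foxo1 probe set (1456529_at) and a further Foxo4 probe set (1422149_at) were below 6.87, the limit of the level filter, in every group and were not tested. That of Foxo4 stood at 6.58 in control and 6.48 in Cre+ LSEC, and at 6.33 and 6.26 in thymus. Foxo4 (1456753_at) fell from 7.12 to 4.98 in LSEC and from 8.09 to 4.85 in thymus. The 4 Cre+ means of 1416983_s_at and 1456753_at lay below that limit, so the size of these falls rests on dim levels. In lung these 2 probe sets differed by -1.29 and -1.10 and did not pass, with limma adjusted p of 0.440 and 0.344 over all probe sets. Of 3 Foxo3 probe sets, 2 fell in LSEC, 1434832_at by 0.53, and none passed in lung; that probe set rose by 0.68 in thymus, where the other two did not pass; whether these probes lie in the deleted exons was not given. The mean level of 12 pan-endothelial markers was 10.41 to 10.76 on control LSEC arrays and 9.54 to 9.86 on control lung arrays, against 6.04 to 6.16 in control thymus, where 8 of the 12 lay below the level filter. Lung arrays also held lung epithelial markers, at 9.89 to 9.97 in controls, and fibroblast and mural markers, at 10.40 to 10.54. Thymus arrays held T cell and thymocyte markers at 11.32 to 11.50. Because RNA came from many cells at once, fewer cells that express a gene and less of its RNA per cell cannot be told apart anywhere in these data.

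The stretch upstream of the start site is a place where a FoxO protein may bind a gene. It is shown for the 4 genes that were lower in Cre+ LSEC (Gadd45a, Gadd45b, Cdkn1b and Ccng2). It is also shown for the only gene with a match to the FoxO element among the 9 that had a window. Sequences are from RefSeq on build GRCm38.p6, which held windows for 9 of the 10 genes, and Cdkn1c had none. Each line gives the 250 bases before the start site in the direction of transcription, with capitals marking a motif match. Gadd45a lies at chr6:67037408-67037657 on the minus strand. The others lie on the plus strand, Gadd45b at chr10:80929841-80930090, Cdkn1b at chr6:134920151-134920400, Ccng2 at chr5:93267323-93267572 and Btg1 at chr10:96616751-96617000.
Gadd45a: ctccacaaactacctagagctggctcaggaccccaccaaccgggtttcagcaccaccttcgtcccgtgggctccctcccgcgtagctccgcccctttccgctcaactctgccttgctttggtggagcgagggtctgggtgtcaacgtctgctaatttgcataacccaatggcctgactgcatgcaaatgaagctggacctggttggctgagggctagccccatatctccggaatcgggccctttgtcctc
Gadd45b: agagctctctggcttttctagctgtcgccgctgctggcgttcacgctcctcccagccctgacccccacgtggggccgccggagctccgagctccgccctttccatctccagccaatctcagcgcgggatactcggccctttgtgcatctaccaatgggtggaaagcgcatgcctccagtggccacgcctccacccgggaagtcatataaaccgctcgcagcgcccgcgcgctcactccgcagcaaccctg
Cdkn1b: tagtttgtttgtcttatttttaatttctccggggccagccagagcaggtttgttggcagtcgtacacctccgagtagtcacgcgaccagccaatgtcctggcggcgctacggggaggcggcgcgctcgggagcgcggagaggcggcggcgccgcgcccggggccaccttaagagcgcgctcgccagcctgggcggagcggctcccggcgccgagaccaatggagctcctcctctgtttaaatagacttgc
Ccng2: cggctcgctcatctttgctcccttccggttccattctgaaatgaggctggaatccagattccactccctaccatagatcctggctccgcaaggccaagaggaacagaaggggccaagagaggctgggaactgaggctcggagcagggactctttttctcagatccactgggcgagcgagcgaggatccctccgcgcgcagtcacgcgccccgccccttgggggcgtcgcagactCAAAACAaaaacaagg
Btg1: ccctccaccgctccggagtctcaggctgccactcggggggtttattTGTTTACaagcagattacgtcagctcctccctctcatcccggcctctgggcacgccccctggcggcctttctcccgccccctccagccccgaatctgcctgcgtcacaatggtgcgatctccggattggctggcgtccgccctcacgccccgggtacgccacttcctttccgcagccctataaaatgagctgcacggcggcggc
The core of the FoxO (DAF-16 family) element, GTAAACA, was searched on both strands in each window, which also held 50 bases after the start. It stood in 1 of the 9 genes with a window, Btg1, as TGTTTAC 204 bases before the start, and in 3.65% of the 32851 windows of all genes. The core of the insulin response element, CAAAACA, stood in 1 of the 9, Ccng2, at 16 bases before the start, and in 6.28% of all windows. No overlap between the 2 motifs occurred in these windows. A match is a string of letters and not a bound site, and FoxO sites farther from the start are not covered by windows of this length.

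In LSEC, 4 of the 10 genes fell in Cre+ samples and none rose. These were Gadd45a, Gadd45b, Cdkn1b and Ccng2, with log2 differences of -2.33, -0.96, -0.58 and -0.56. Over all 13034 genes tested, 3.25% were lower and 2.81% higher by the same rule, a limma p-value adjusted by the Benjamini-Hochberg method under 0.05. At an unadjusted p under 0.05 5 of the 10 differed, these 4 and Ccng1 (-0.24), beside 19.9% of all genes. The groups did not overlap for 4 of the 10 genes, against 23.7% of all genes. The median difference of the 10 was -0.25, beside 0.0064 over all genes tested, and 9 of the 10 values lay below 0. All 10 genes passed the level filter, which asked for a mean of at least 6.87 in 1 of the 3 tissues.

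**Figure D1:**
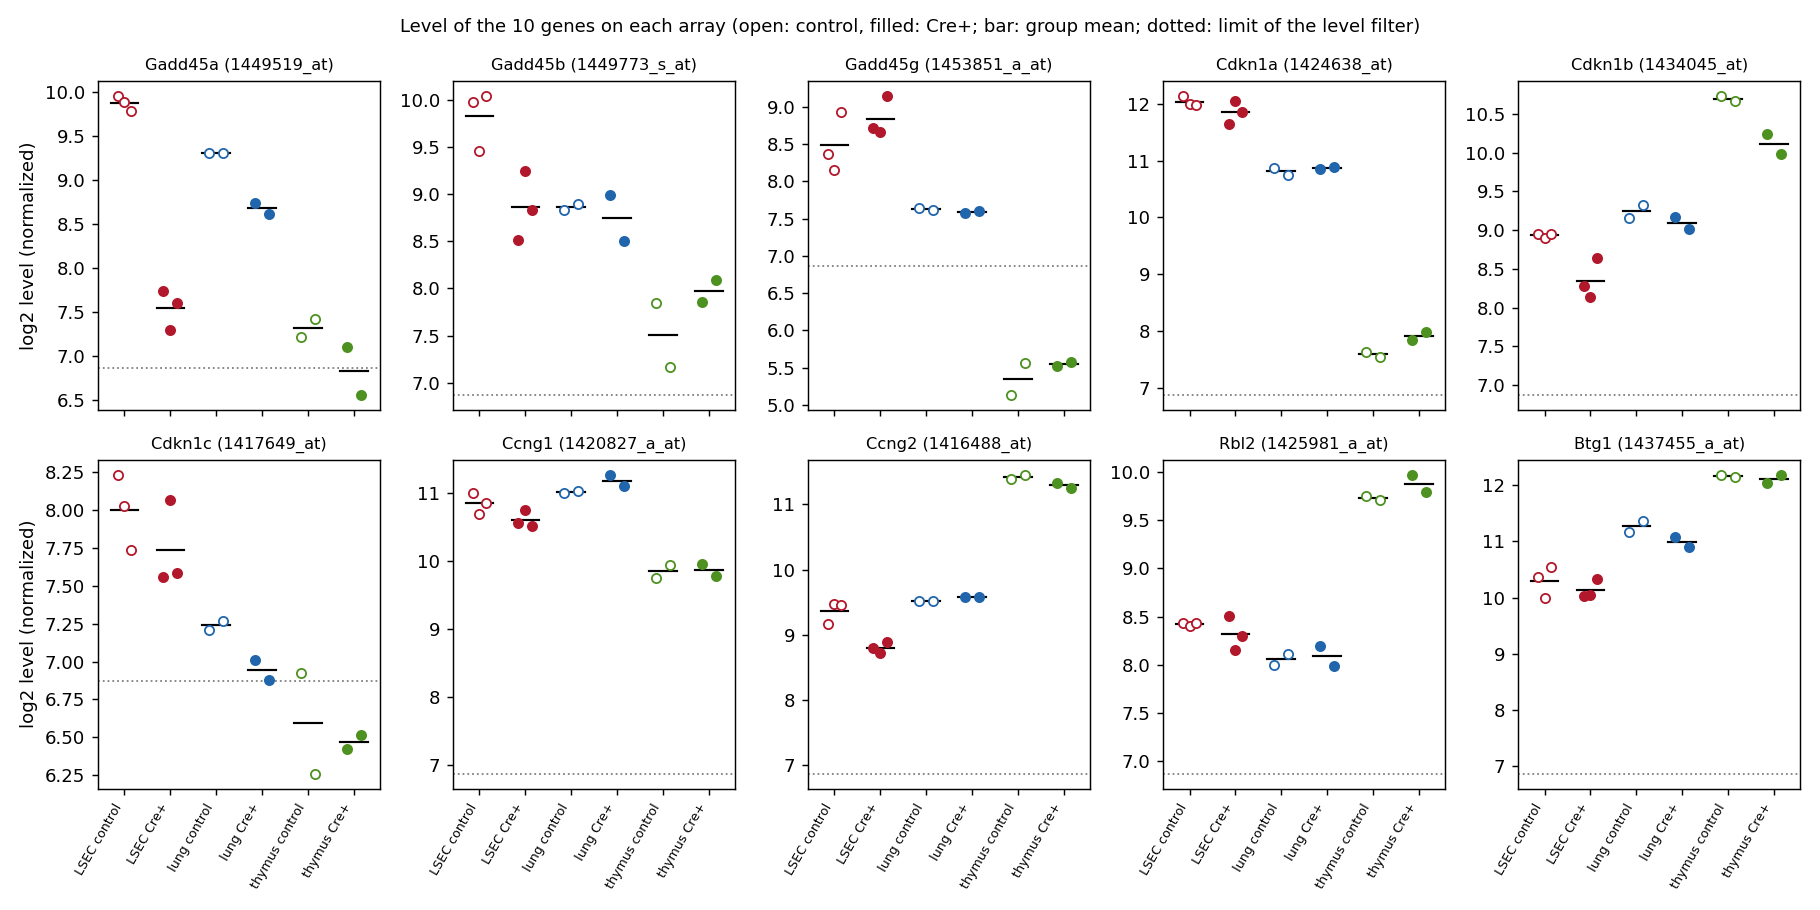
Normalized log2 level of the 10 genes (1 panel per gene, each on its own y axis, with the probe set that stands for the gene) on each of the 14 arrays, by group along the x axis. Open circles are control arrays, filled circles Cre+ arrays, bars are group means and the dotted line is the limit of the level filter at 6.87. Gadd45a stood at 9.79 to 9.96 on control LSEC arrays and 7.30 to 7.74 on Cre+ LSEC arrays.

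The Gadd45 proteins are small stress-induced nuclear proteins that bind p21, PCNA, CDK1 and the kinase MAP3K4 and slow passage through G2 and S phase. Gadd45a, the member classed as a p53 and FoxO target, stood at 9.96, 9.89 and 9.79 on the control LSEC arrays and at 7.74, 7.30 and 7.61 on the Cre+ arrays. Every Cre+ array was lower than every control array by more than 2 on the log2 scale. The group means were 9.88 ± 0.083 (SD, n = 3) and 7.55 ± 0.23 (SD, n = 3), a difference of -2.33 (SE 0.144), or 5.02-fold lower, with limma adjusted p = 6.88e-06. It had the lowest value of the 10 genes in this comparison, and its call held in all 8 alternative settings run, with an adjusted p of at most 0.0012, and with any 1 array left out.

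Gadd45b, a member of the family known for induction by TGF-beta and NF-kB, stood at 9.97, 9.46 and 10.04 on control LSEC arrays and at 8.51, 9.24 and 8.83 on Cre+ arrays. The groups did not overlap, but control array 2, the lowest control, lay close above Cre+ array 2, the highest of its group. The difference was -0.96 (SE 0.232), with limma adjusted p = 0.0329. This call was near the threshold. It was lost without lung control 1 (adjusted p = 0.0501), LSEC control 1 (0.0992), LSEC control 3 (0.107), LSEC Cre+ 1 (0.104) or LSEC Cre+ 3 (0.0917), with no level filter (0.0748), and with only LSEC arrays in the fit (0.0812).

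Gadd45g, the third member, known for roles in T helper and germ cell development, did not pass. It stood at 8.37, 8.15 and 8.93 on control LSEC arrays and at 8.71, 8.66 and 9.14 on Cre+ arrays. The groups overlapped. Its difference of 0.36 was the only one of the 10 above 0 in LSEC (95% interval -0.06 to 0.78, limma adjusted p = 0.335).

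The CIP/KIP proteins bind cyclin and kinase together and block CDK2 complexes. Cdkn1b, the gene of p27, the inhibitor tied to quiescence, stood at 8.95, 8.89 and 8.95 on control LSEC arrays and at 8.27, 8.13 and 8.63 on Cre+ arrays. The 3 controls lay close together and above all Cre+ arrays. The difference was -0.58 (SE 0.123), or 1.50-fold lower, with limma adjusted p = 0.0177. It was lost without LSEC control 1 (adjusted p = 0.0547), LSEC control 3 (0.0509), LSEC Cre+ 1 (0.0599) or LSEC Cre+ 2 (0.0568), and with only LSEC arrays in the fit (0.0797). When the gene was given by the mean of its probe sets, the difference was -0.34 (adjusted p = 0.403).

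Cdkn1a, the gene of p21, which p53 induces after DNA damage, was bright in LSEC of both genotypes. It stood at 12.14, 12.00 and 11.99 on control arrays and at 11.65, 12.05 and 11.87 on Cre+ arrays. The groups overlapped, and the difference of -0.19 did not pass (95% interval -0.41 to 0.03, limma adjusted p = 0.341). Cdkn1c, the imprinted gene of p57, stood at 8.23, 8.03 and 7.74 and at 7.56, 8.06 and 7.59. These groups overlapped too, with a difference of -0.26 (95% interval -0.67 to 0.14, adjusted p = 0.485).

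Of the G cyclins, Ccng2 fell and Ccng1 did not pass. Ccng2, a cyclin that is high in arrested cells, stood at 9.17, 9.47 and 9.46 on control LSEC arrays and at 8.80, 8.71 and 8.89 on Cre+ arrays. All controls were higher than all Cre+ arrays, and the spread within either group was smaller than the gap between the means. The difference was -0.56 (SE 0.0898), or 1.48-fold lower, with limma adjusted p = 0.0037. The call held with any 1 array left out, up to an adjusted p of 0.0195, and missed the threshold at 0.0502 with only LSEC arrays in the fit. Ccng1, a p53 target that acts with the phosphatase PP2A, stood at 11.00, 10.69 and 10.84 in controls and at 10.55, 10.74 and 10.51 in Cre+ cells. The groups overlapped by 1 array on each side, and the difference of -0.24 had an unadjusted p of 0.0386 and an adjusted p of 0.220 in limma.

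Rbl2 encodes p130, the pocket protein that holds E2F targets silent in quiescent cells, and Btg1 encodes a protein that recruits the deadenylase complex to messenger RNA and keeps lymphocytes quiescent. Rbl2 stood at 8.43, 8.41 and 8.44 on control LSEC arrays and at 8.51, 8.16 and 8.29 on Cre+ arrays. The Cre+ arrays lay on both sides of the controls, and the difference was -0.10 (95% interval -0.32 to 0.11, limma adjusted p = 0.626). Btg1 stood at 10.37, 9.99 and 10.54 and at 10.04, 10.04 and 10.34. Its groups overlapped as well, with a difference of -0.16 (95% interval -0.46 to 0.15, adjusted p = 0.588).

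Where a gene had several probe sets, they mostly gave the same direction in LSEC. Signs differed without passing for Rbl2 (-0.10 on 1425981_a_at and 0.05 on 1418146_a_at) and for Btg1. Btg1 gave -0.16 on 1437455_a_at, -0.07 on 1426083_a_at and 0.06 on 1442018_at, which was below the level limit in LSEC. Of the 20 probe sets, 19 passed the level filter and were tested in a fit over 27022 probe sets. In LSEC 6 were lower and none higher, beside 5.23% of all probe sets called in either direction, and 16 of the 19 lay below 0. The 6 were the single Gadd45a probe set, 2 of 3 for Gadd45b (1449773_s_at and 1450971_at), the only tested one for Cdkn1b (1434045_at) and both for Ccng2 (1416488_at and 1448364_at). The second Ccng2 probe set stood at 8.34, 8.73 and 8.68 in controls and at 8.25, 8.03 and 8.12 in Cre+ cells. These groups did not overlap, with a difference of -0.45 and limma adjusted p = 0.0409. The third Gadd45b probe set (1420197_at) differed by -0.82 with adjusted p = 0.124. For Ccng1, the groups overlapped on the probe set that stands for the gene but not on 1450016_at and 1450017_at. These differed by -0.19 (adjusted p = 0.342) and -0.34 (0.0734) and did not pass. The second Cdkn1a probe set (1421679_a_at) stood at 11.50, 12.03 and 12.13 in controls and at 11.66, 11.16 and 11.17 in Cre+ cells. Its groups overlapped, and its difference of -0.56 did not pass (adjusted p = 0.238). The second Cdkn1b probe set (1419497_at) was below the level limit in all 3 tissues and was not tested; its differences were -0.10 in LSEC, -0.60 in lung and -1.23 in thymus.

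**Figure D2:**
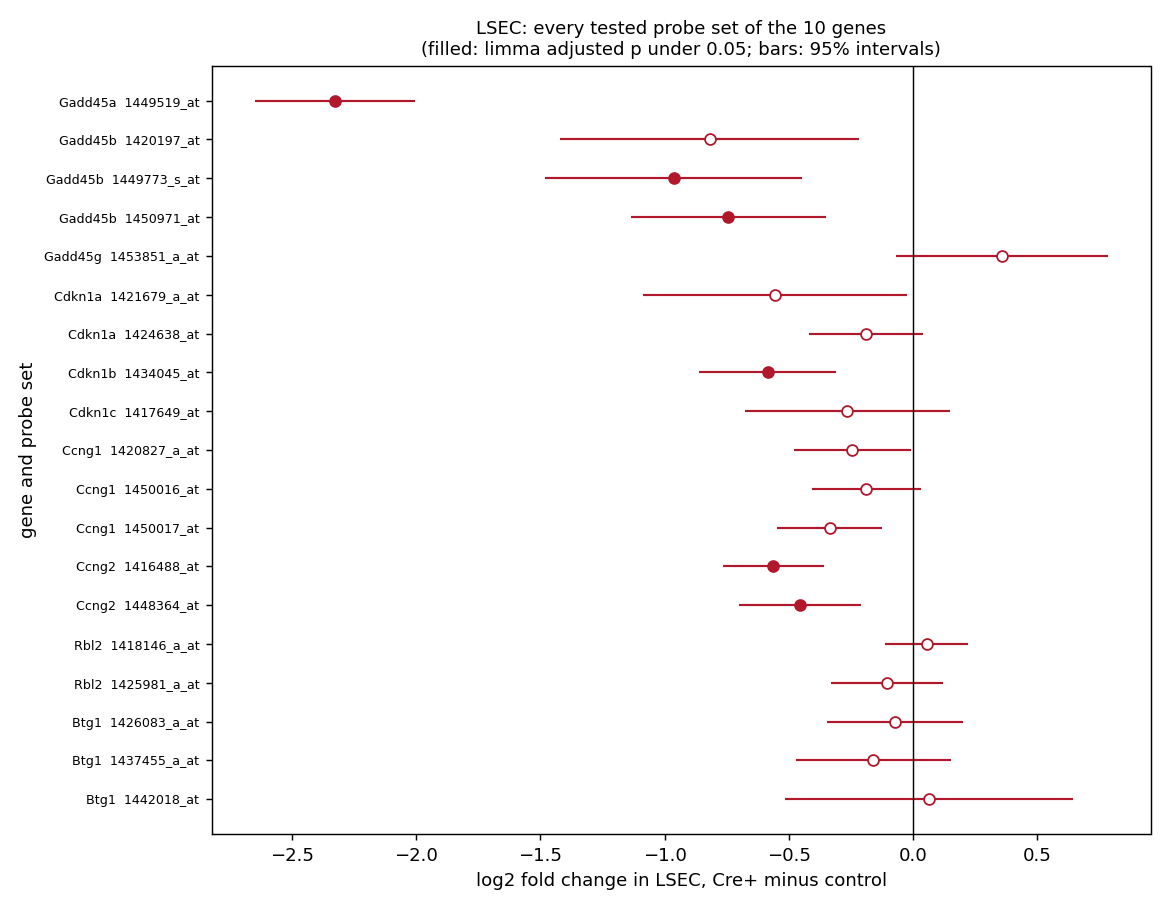
Log2 fold change, Cre+ minus control, in LSEC for the 19 tested probe sets of the 10 genes, 1 per line of the y axis, with 95% intervals from limma. Filled points have an adjusted p under 0.05. The 6 filled points belong to Gadd45a, Gadd45b, Cdkn1b and Ccng2, and 16 of the 19 points lie below 0.

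Other measured features moved with the LSEC comparison. Of 10 LSEC markers tested, 8 fell, Lyve1 the most (-3.45, limma adjusted p = 5.18e-06), and their mean level was 10.35 to 10.91 on control and 8.53 to 9.31 on Cre+ arrays; none of the 10 was below the level limit in either group. Of 12 pan-endothelial markers 3 fell, Cldn5 the most (-1.42), with mean levels of 10.41 to 10.76 and 9.97 to 10.25. Of 6 mast cell markers tested 3 rose, Tpsab1 the most (3.50), and 1 fell; the list's mean level was 6.11 to 6.26 on control and 6.84 to 7.78 on Cre+ arrays, with 5 of 8 markers below the limit in controls and 1 of 8 in Cre+ cells. Of 3 neutrophil markers tested, S100a8 rose by 2.91. The mean level of 6 neutrophil markers was 5.29 to 5.71 on control and 6.31 to 7.68 on Cre+ arrays. Of these, 4 lay below the limit in controls and 2 in Cre+ cells. Of 20 immediate early and heat shock genes, which rise when cells are handled, 8 fell, Egr1 the most (-1.76), and their mean level was 10.09 to 10.44 on control and 9.63 to 9.77 on Cre+ arrays. In the remaining lists, 2 of 8 lung endothelial and 1 of 4 hepatocyte markers rose, 2 of 10 fibroblast and mural markers fell, and none passed of 11 T cell, 5 B cell, 7 macrophage, 7 lung epithelial and 2 erythroid markers, of which 3 had a limma unadjusted p under 0.05. LSEC arrays also held macrophage markers, and the mean level of 8 of them ranged widely within both groups. It was 8.87 to 10.09 on control and 8.88 to 10.05 on Cre+ arrays. The part of all these lists in the differences of the 10 genes was not tested.

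None of the 10 genes passed in lung endothelial cells, where 0.107% of all genes passed in either direction. By limma's unadjusted p under 0.05, 1 of the 10 differed, beside 4.56% of all genes, and the groups did not overlap for 6 of the 10, against 38.4% of all genes. Gadd45a stood at 9.31 and 9.31 on control lung arrays and at 8.74 and 8.62 on Cre+ arrays. Both Cre+ arrays were lower than both controls. The difference was -0.63 (95% interval -1.02 to -0.24), with an unadjusted p of 0.00423 and an adjusted p of 0.561. Some marker lists moved apart on the same arrays, though none of their genes passed. The mean level of 12 pan-endothelial markers was 9.54 to 9.86 on control and 9.29 to 9.39 on Cre+ lung arrays, that of 8 lung endothelial markers 8.34 and 8.62 to 8.64, and that of 8 macrophage markers 8.88 to 8.99 and 9.25 to 9.37. Their part in the lung values was not tested.

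For the other 9 genes in lung, differences ran from -0.30 for Cdkn1c to 0.17 for Ccng1, and the median of the 10 was -0.083 beside 0.015 over all genes. Cdkn1b stood at 9.16 and 9.33 in controls and at 9.17 and 9.02 in Cre+ cells, which overlapped. Ccng2 stood at 9.51 and 9.53 and at 9.58 and 9.57, so its 2 Cre+ arrays were slightly above the controls, with a difference of 0.06 (SE 0.110). Its second probe set (1448364_at) went the other way, at 8.82 and 8.64 in controls and 8.58 and 8.60 in Cre+ cells. Those groups did not overlap either, and the difference of -0.14 did not pass. Gadd45b differed by -0.12 and Cdkn1a by 0.05. Among probe sets, Rbl2 1418146_a_at stood at 7.40 and 7.53 in controls and at 7.05 and 7.10 in Cre+ cells. The groups did not overlap, and its difference of -0.39 (unadjusted p 0.00152, adjusted p 0.416 in limma) stood against 0.04 for the Rbl2 probe set that stands for the gene.

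In thymus none of the 10 passed either, and 0.414% of all genes passed. By limma's unadjusted p under 0.05, 3 of the 10 differed, beside 12.4% of all genes, and the groups did not overlap for 6 of the 10, against 41.6% of all genes. Cdkn1b, which holds back division of developing and resting T cells, stood at 10.73 and 10.66 on control thymus arrays and at 10.24 and 9.98 on Cre+ arrays. Both Cre+ arrays were lower, with a difference of -0.59 (SE 0.151, unadjusted p 0.0024, adjusted p 0.124). Gadd45a stood at 7.22 and 7.43 and at 7.10 and 6.56. Its groups did not overlap, its Cre+ mean of 6.83 was below the level limit, and its difference of -0.49 had an unadjusted p of 0.0175 and an adjusted p of 0.282.

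Cdkn1a gave the third unadjusted result in thymus, in the other direction. It stood at 7.63 and 7.54 in controls and at 7.85 and 7.98 in Cre+ samples. Both Cre+ arrays were higher, with a difference of 0.33 (unadjusted p 0.0225, adjusted p 0.314), while the gene's second probe set (1421679_a_at), which was below the level limit in thymus, differed by -0.46 (adjusted p 0.605). Ccng2 stood at 11.38 and 11.46 and at 11.32 and 11.26, a difference of -0.13 that did not pass. Gadd45b differed by 0.47 (adjusted p 0.553), Rbl2 by 0.15, Btg1 by -0.06 and Ccng1 by 0.02. The median of the 10 was -0.016 beside 0.025 over all genes. In the same thymus arrays, 1 of 10 fibroblast and mural markers, Col3a1, rose by 0.75, and the list's mean level was 8.02 to 8.12 in controls and 8.56 to 8.60 in Cre+ samples. Some other marker lists moved apart too, though none of their genes passed. Macrophage markers averaged 7.43 to 7.49 in controls and 7.71 to 7.73 in Cre+ samples, and lung endothelial markers 6.87 to 6.90 and 7.15 to 7.24. T cell and thymocyte markers overlapped, at 11.42 to 11.46 and 11.32 to 11.50. The part of these lists in the thymus values was not tested.

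**Figure D3:**
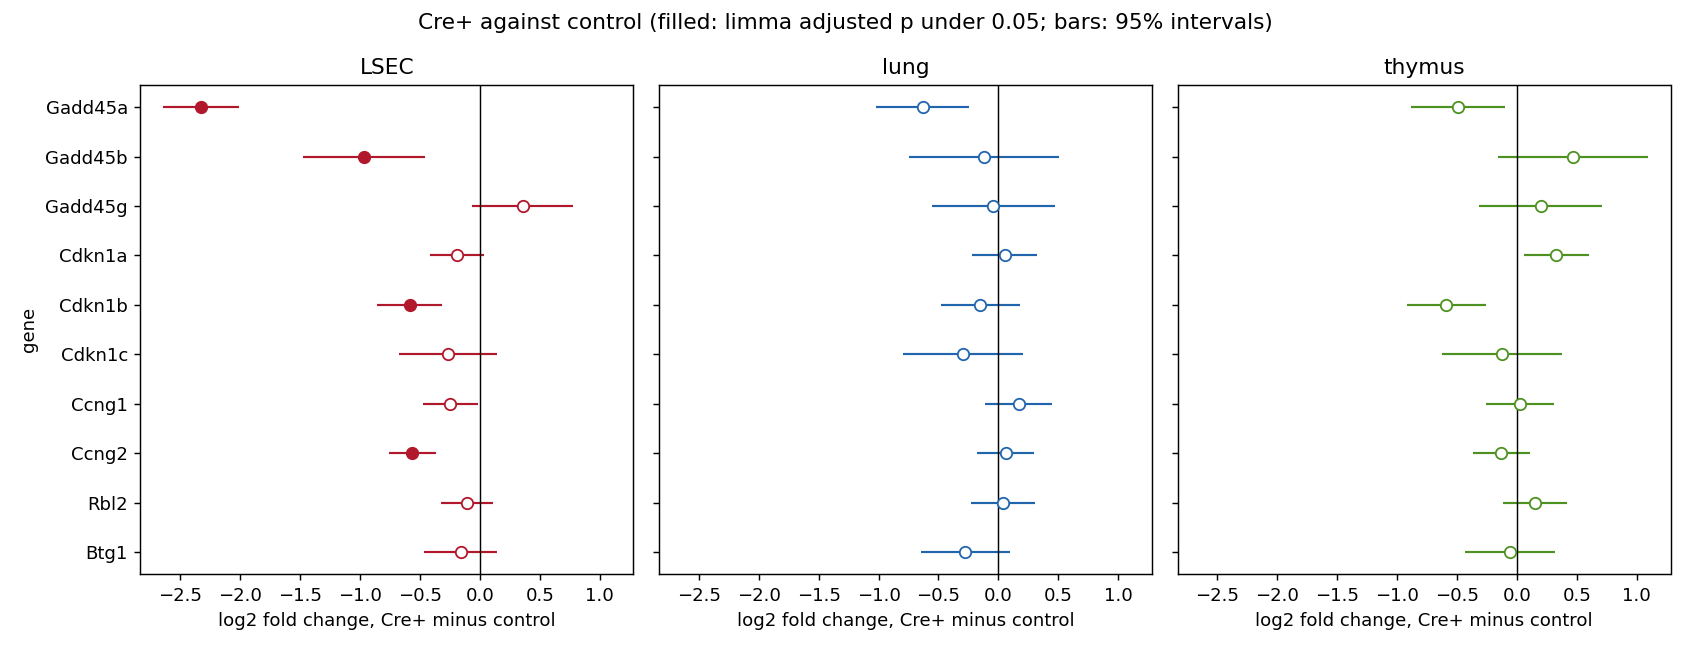
Log2 fold change, Cre+ minus control, of the 10 genes (y axis) in LSEC (3 against 3 arrays), lung (2 against 2) and thymus (2 against 2), with 95% intervals from limma. Filled points have an adjusted p under 0.05. The 4 filled points are all in LSEC, and the Gadd45a value there, -2.33, lies below those in lung, -0.63, and thymus, -0.49.

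Whether the effect of Cre differed between tissues was tested by the interaction. For Gadd45a the fall in LSEC was larger than the difference in lung (LSEC minus lung -1.69, SE 0.228, limma adjusted p = 0.0105) and than that in thymus (-1.84, SE 0.228, adjusted p = 0.0037). It was the only one of the 10 that passed in either comparison, beside 0.614% of all genes for LSEC against lung and 2.34% for LSEC against thymus. The first was lost without lung control 1 (adjusted p = 0.0630) or lung Cre+ 1 (0.0701), and the second held with any 1 array left out, up to 0.0213. For Ccng2 the interaction of LSEC minus lung was -0.62 (adjusted p = 0.0959, with a range of 0.0364 without LSEC control 1 to 0.349 without lung Cre+ 1). On its second probe set (1448364_at) this interaction was -0.32 (limma adjusted p = 0.601 over all probe sets). For Gadd45b that of LSEC minus thymus was -1.43 (0.0717, with a range of 0.0454 without LSEC Cre+ 2 to 0.287 without thymus control 2). Cdkn1b differed by -0.43 between LSEC and lung (adjusted p = 0.515) and by 0.0039 between LSEC and thymus (95% interval -0.42 to 0.43), or by 0.57 with the mean of its probe sets, which did not pass either. None of the 10 passed between lung and thymus, where 0.0307% of all genes did. Of the floxed genes, Foxo1 (1416983_s_at) gave -2.27 for LSEC minus lung (limma adjusted p = 0.0475 over all probe sets). It gave -1.76 for LSEC minus thymus (0.0571). The other tested Foxo1 probe sets did not pass against lung. Foxo3 (1434832_at) gave -0.63 (0.0815) and -1.21 (0.0025), and Foxo4 -1.04 (0.270) and 1.09 (0.130). Gadd45a stood at 7.32 in control thymus, near the level limit of 6.87. The part of these values in the Gadd45a interactions was not tested.

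Among control samples the 10 genes split into a set that was low in thymus and a set that was high there. Against control LSEC, 6 were lower in control thymus, namely the 3 Gadd45 genes, Cdkn1a, Cdkn1c and Ccng1, and 4 were higher, namely Cdkn1b, Ccng2, Rbl2 and Btg1. Over all genes 37.1% were lower and 27.9% higher in this comparison, so a call here is common. The same 6 were lower and the same 4 higher in thymus than in control lung, where 32.7% and 27.8% of all genes were. Both comparisons share the control thymus arrays. Tissue and the way each was isolated cannot be told apart.

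Cdkn1a had the widest range, with means of 12.04 ± 0.086 (SD, n = 3) in control LSEC, 10.82 ± 0.090 (SD, n = 2) in control lung and 7.59 ± 0.068 (SD, n = 2) in control thymus. No groups overlapped, and thymus was lower than LSEC by a log2 difference of -4.46 (limma adjusted p = 8.11e-11). Gadd45a followed the order LSEC at 9.88, lung at 9.31 and thymus at 7.32, with thymus against LSEC at -2.55. Gadd45g, at 8.48, 7.63 and 5.35, was below the level limit on all 4 thymus arrays, so its difference of -3.13 rests on a dim thymus level. Gadd45b stood at 9.82, 8.86 and 7.50. These 4 genes were highest in LSEC and lowest in thymus. Cdkn1c had the same order of means, with LSEC above lung by 0.76, lung at 7.24, and thymus at 6.59, below the limit. Its difference between thymus and lung of -0.65 (adjusted p = 0.028) was lost without lung control 1 (0.0764), lung control 2 (0.103) or thymus control 2 (0.283).

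Cdkn1b took the reverse order, with means of 8.93 ± 0.033 (SD, n = 3) in control LSEC, 9.24 ± 0.12 (SD, n = 2) in control lung and 10.70 ± 0.047 (SD, n = 2) in control thymus. Its step from LSEC to lung did not pass (-0.31, limma adjusted p = 0.0881), though the groups did not overlap, and it was called at 0.0340 without LSEC Cre+ 3. The step from LSEC to thymus was 1.77 (adjusted p = 4.24e-07). Ccng2, at 9.37, 9.52 and 11.42, differed by 2.05 between thymus and LSEC and did not pass between LSEC and lung (adjusted p = 0.236). Btg1 was higher at each step, from 10.30 in LSEC to 11.27 in lung and 12.17 in thymus. The probe set that stands for Rbl2 was at 8.06 in lung, 8.42 in LSEC and 9.73 in thymus, while the second, 1418146_a_at, was at 7.47, 7.32 and 9.13, with lung and LSEC overlapping. Both put thymus highest, and they differed in the order of LSEC and lung. With the mean of the Rbl2 probe sets, LSEC minus lung was 0.11 (adjusted p = 0.296) and not 0.37. Ccng1 was at 10.84 in LSEC and 11.01 in lung, which overlapped, and at 9.84 in thymus. Another Ccng1 probe set, 1450016_at, was higher in LSEC (10.55) than in lung (10.04), by 0.51 (adjusted p = 0.0035 over all probe sets), and the third differed by -0.06 without passing.

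Between control LSEC and control lung, 6 of the 10 were higher in LSEC and 1 (Btg1, -0.97) lower, beside 25.9% and 20.2% of all genes. The groups did not overlap for 9 of the 10 genes here, against 67.7% of all genes, and for all 10 in both thymus comparisons, against 78.5% (LSEC) and 84.7% (lung). The 6 were Gadd45a (0.57), Gadd45b (0.96), Gadd45g (0.85), Cdkn1a (1.23), Cdkn1c (0.76) and Rbl2 (0.37). Without lung control 1 only 2 of these 6 remained called, Gadd45g and Cdkn1a, as limma's adjusted p became 0.0662 for Gadd45a, 0.0619 for Gadd45b, 0.0655 for Cdkn1c and 0.127 for Rbl2. Without lung control 2, those of Gadd45a (0.0685) and Cdkn1c (0.0506) were lost.

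**Figure D4:**
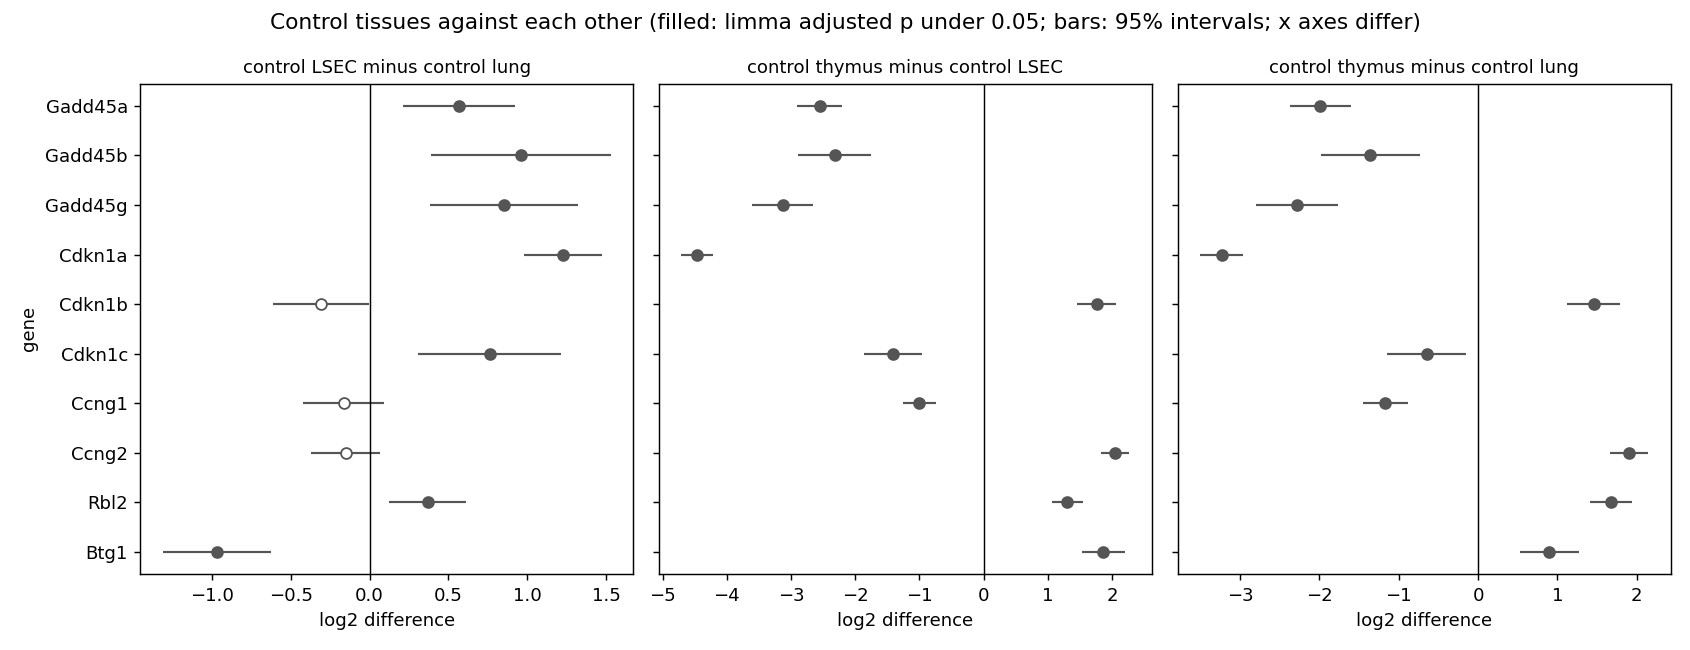
Log2 difference of the 10 genes (y axis) between control tissues, with 95% intervals from limma: LSEC (3 arrays) minus lung (2), thymus (2) minus LSEC, and thymus minus lung. The x axes differ between panels, and filled points have an adjusted p under 0.05. Cdkn1b, Ccng2, Rbl2 and Btg1 lie above 0 in both thymus panels and the other 6 genes below.

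The wider cell cycle machinery in LSEC was taken from 7 lists. Their counts stand beside 3.25% of all genes lower and 2.81% higher. Of 7 tested inhibitors of cyclin-dependent kinases 2 fell, Cdkn1b and Cdkn2b (p15, an inhibitor of CDK4 and CDK6), and none rose. Cdkn2b fell by 1.84, or 3.57-fold, from a mean of 8.96 to 7.13 (limma adjusted p = 1.59e-05). The median of this list was -0.19, beside 0.0064 over all genes. Of 24 tested p53 targets, 5 fell and none rose, with a median of -0.24. Beside Gadd45a these were Btg2, an antiproliferative relative of Btg1 (-1.19), the sestrin gene Sesn1 (-0.62), Trp53inp1, a p53-induced stress gene (-0.61), and the death receptor gene Fas (-0.60). Btg2 was also the only 1 of 5 in the BTG and TOB family that fell, with a list median of -0.16. Cdkn1a, Mdm2, Ccng1 and 16 others of the p53 list did not pass.

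For the drivers of the cycle, counts are to be read beside the 2.81% higher and 3.25% lower over all genes. Of 18 cyclins, CDKs and their regulators 1 rose, the G1 cyclin Ccnd1, by 0.91 from a mean of 9.87 to 10.78 (limma adjusted p = 0.00147), and the median was 0.11. Of 20 pocket protein, E2F and MuvB genes 1 rose, the repressor E2f7 by 0.59, with a median of 0.045. Of 14 GADD45 partners and stress kinases, the p38 activator Map2k3 rose by 0.36 and the JNK gene Mapk9 fell by 0.39, with a median of 0.15. Map3k4, the kinase that Gadd45 proteins bind, differed by 0.39 without passing (adjusted p = 0.0945). Of 12 genes of p27 turnover 1 rose, Ubac1, a subunit of the KPC ubiquitin ligase of p27, by 0.35, with a median of 0.074; Skp2, which marks p27 for destruction in S phase, differed by 0.38 without passing. Without the 10 genes described here, the 7 lists held 91 tested genes, of which 4 rose and 6 fell in LSEC. In lung and thymus none of the 91 passed in limma, with 3 and 23 at an unadjusted p under 0.05, a threshold that 4.56% and 12.4% of all genes met.

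**Figure D5:**
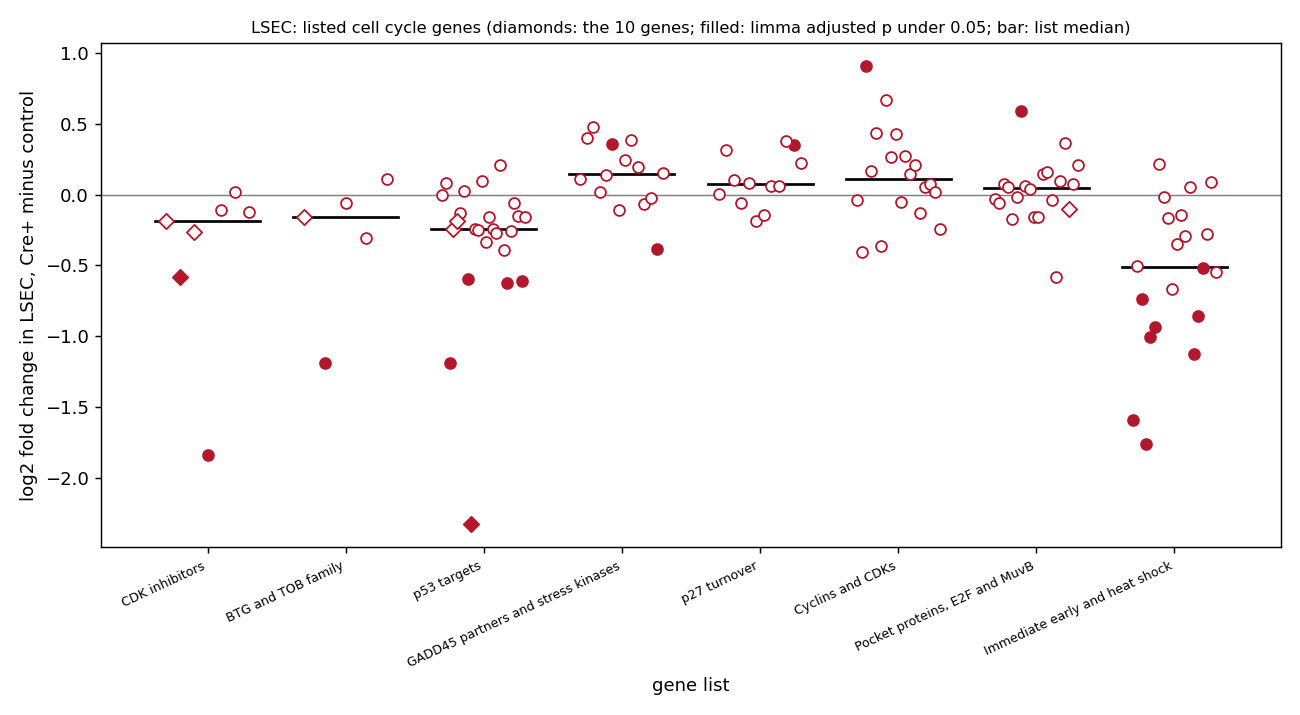
Log2 fold change in LSEC, Cre+ minus control, of every tested gene of the 7 cell cycle lists and of the immediate early and heat shock list (x axis), with a bar at each list's median. Diamonds mark the 10 genes described here, and filled symbols have a limma adjusted p under 0.05. Gadd45a at -2.33 and Cdkn2b at -1.84 are the lowest points of the 7 cell cycle lists.

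The genes whose level over the 14 arrays was most like that of a member were found by Pearson correlation, given here as a description because arrays of 1 tissue share most of their pattern. For Gadd45a the 3 most similar were Angpt2 (0.953), Slc10a6 (0.945) and Pdk4 (0.943). For Cdkn1b they were Nhsl1 (0.978), Hipk1 (0.973) and Tyms (0.968). For Cdkn1a they were Pls3 (0.998), Tjp1 (0.997) and Ptpn12 (0.997), whose levels on these arrays were set apart by tissue as those of Cdkn1a were.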

How the data were processed

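RNA of 14 samples was labelled as biotinylated cRNA and hybridised to Affymetrix arrays, per the labels' protocols. The authors' deposited values, 1 for each of 45101 probe sets on an array, were read as log2 because they run from 0 to 13.8. How the authors corrected, summarized and normalized them, and the log base, is not stated in the labels or the table. Each array has 223 to 312 values at 0. The deposited array medians ran from 6.75 to 7.04, so arrays were quantile normalized. Of the probe sets, 64 were controls, 34945 carried 1 gene symbol in the array's annotation, 932 several and 9160 none.

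The brightest probe set with a single symbol stood for its gene. The level filter kept 13034 of 18193 genes and 27022 probe sets, with a limit of 6.87 on the mean of the brightest tissue, which is the 40th percentile of all probe sets. Group means of the 6 groups were estimated together in limma 3.58.1 under R 4.3.3 (lmFit and eBayes; 8 residual and 3.21 prior degrees of freedom). The Benjamini-Hochberg adjustment ran over all genes, or all probe sets, of 1 contrast, with a threshold of 0.05. Fold differences are antilogs of log2 differences. The fit was also run on simulated data with noise drawn independently for each gene and array. Such noise holds no variation shared between genes, so that run cannot speak to array effects or cell make-up. The number of arrays limits the precision.

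All 10 genes and their probe sets are named; of each cell cycle list up to 6 passing genes with the largest changes, of each marker list the passing gene with the largest change, and for 3 genes the 3 with the highest correlation. A listed gene named without passing was chosen after its value was seen. The genes, lists and tests were chosen with earlier results of these data known. Alternatives were median centring, values as deposited, no or a stricter (60th percentile) filter, the mean of a gene's probe sets, trended and robust eBayes, only the arrays compared, a replicate block and each array left out. Groups in LSEC, lung and thymus share replicate numbers, but deviations of same-numbered control and Cre+ arrays correlated at -0.31, -0.091 and -0.26 in LSEC, -0.24 in lung and 0.052 in thymus, so the numbers were not taken to pair samples.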

Additional observations from a re-analysis of the deposited data

Results flagged for a closer look

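The effect of Cre on Gadd45a differed between tissues by the interaction tests, and both results deserve a closer look. In LSEC minus lung the difference of effects was -1.69 (limma adjusted p = 0.0105), and in LSEC minus thymus it was -1.84 (adjusted p = 0.0037). The first was lost without lung control 1 (0.0630) or lung Cre+ 1 (0.0701). Gadd45a was lower on every Cre+ array than on every control array in LSEC (3 and 3 arrays), lung (2 and 2) and thymus (2 and 2). Groups did not overlap for 23.7%, 38.4% and 41.6% of all genes in these comparisons. Its differences in lung (-0.63, limma adjusted p = 0.561) and thymus (-0.49, 0.282) did not pass, so a shared direction was not established. Groups of 2 or 3 arrays were too small for a test of single outlying samples. The loss of Foxo1 RNA on 1416983_s_at also differed between LSEC and lung (-2.27, limma adjusted p = 0.0475 over all probe sets). The other tested Foxo1 probe sets did not pass there. Gadd45a stood at 7.32 in control thymus, near the level limit of 6.87. The part of these values in the Gadd45a interactions was not tested.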

How the results depend on the processing

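In LSEC the count of the 10 genes that fell, 4, was 1 with only the LSEC arrays in the fit and 2 with a replicate block, and ran from 2 to 4 with 1 array left out (2 without LSEC control 1, LSEC control 3 or LSEC Cre+ 1). None rose in any setting run. Gadd45a kept its LSEC call in all of them. Under the replicate block Gadd45b (limma adjusted p = 0.135) and Cdkn1b (0.0579) lost their LSEC calls, and the Gadd45a interactions were lost against lung (0.121) and thymus (0.0519), so 0 of the 10 passed in either. The counts for these interactions, 1 each, were 2 for LSEC minus lung with trended and robust eBayes (Ccng2, 0.0421), and ran from 0 to 2 and from 1 to 2 with 1 array left out. The block with lung numbers crossed, chosen after seeing the data, called 3 of all genes in lung against 0 with the block as numbered, and none of the 10 in either. Between control LSEC and control lung the count lower, 1, was 2 with the mean of probe sets or only the arrays compared (Cdkn1b), and 1 to 2 with 1 array left out; the count higher, 6, ran from 2 to 6. Rbl2 lost that call with median centring (0.0511), values as deposited (0.143) or the mean of probe sets (0.296). The Cdkn1c call between thymus and lung was lost as deposited (0.0554), with no filter (0.0516) or with only the arrays compared (0.0513).

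Signs turned only for differences that did not pass. In lung, Cdkn1a (0.05) became -0.0014 with median centring and -0.0081 as deposited, and with the mean of probe sets Gadd45b became 0.070, Ccng2 -0.038 and Rbl2 -0.18; in thymus Cdkn1a became -0.068 and Ccng1 -0.089. With that mean, Cdkn1b was 0.032 in LSEC minus lung and Ccng1 0.096 in control LSEC minus lung. In LSEC minus thymus Cdkn1b became -0.011 with median centring and -0.013 as deposited, and moved to 0.57 with the mean of probe sets. With 1 array left out, ranges crossed 0 in lung for Gadd45b (-0.37 to 0.12), Cdkn1a (-0.012 to 0.12) and Rbl2 (-0.066 to 0.14), in thymus for Gadd45g (-0.016 to 0.41), Cdkn1c (-0.46 to 0.21), Ccng1 (-0.071 to 0.12) and Btg1 (-0.14 to 0.020), and for Cdkn1b in LSEC minus thymus (-0.13 to 0.14). The causes were not tested.

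Counts over all genes moved more. In LSEC 790 genes passed, 352 to 939 in other settings and 496 to 889 with 1 array left out; in lung 14, with 0 to 18 and 2 to 16; in thymus 54, with 4 to 116 and 15 to 232. The interactions gave 80 (1 to 125 and 4 to 99) for LSEC minus lung, 305 (23 to 402 and 62 to 666) for LSEC minus thymus and 4 (2 to 20 and 3 to 21) for lung minus thymus.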

Other observations

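Some listed cell cycle genes outside the 10 also gave interactions that passed in limma. Cdkn2b, which encodes the CDK4 and CDK6 inhibitor p15, had a lower Cre effect in LSEC than in lung by -1.90 (adjusted p = 0.0037) and than in thymus by -1.72 (0.0026). Btg2, the antiproliferative relative of Btg1, differed by -1.02 (0.0398) and -1.06 (0.0165). Between LSEC and thymus the Cre effect was higher in LSEC for Chek1, the checkpoint kinase (1.30, adjusted p = 0.0451), E2f7 (1.00, 0.0369), the pocket protein gene Rbl1 (0.94, 0.0146) and the mitotic factor Foxm1 (0.47, 0.0482). Within LSEC itself E2f7 passed, while Chek1, Rbl1 and Foxm1 did not, and none of them passed within thymus. Over all genes, 0.614% passed for LSEC minus lung and 2.34% for LSEC minus thymus. Fits with arrays left out were not read for these interactions.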
